A study of Mus musculus with 104 samples.

Results

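Mitosis genes are the genes whose products condense, align and separate the chromosomes and then divide the cell. The 35 genes described here were listed by name with earlier results of these data known, so their shares are no independent test of a pattern. They encode the cyclins and the kinase that start mitosis, the other mitotic kinases, the passenger complex of the centromere, the spindle checkpoint, spindle motors, the cytokinesis machinery and chromosome proteins. Of the 35 genes, 33 of the 12393 genes measured had a probe set annotated to them alone and were analysed. Ccnb1, which encodes cyclin B1, and Cdca8, which encodes the passenger complex subunit borealin, were read only by probe sets that carry several gene symbols and were not analysed here.

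The RNA came from mouse lungs and was measured on 104 expression microarrays, 2 for each of 52 numbered lungs. The CG lungs, which received phosgene, an acylating gas that damages the air-blood barrier (labelled 32 mg), numbered 3 at each of 8 times, labelled 0.5, 1, 4, 8, 12, 24, 48 and 72 without a unit and taken here as hours. The air lungs numbered 3 at each of these times except 4 at 48 h, and 3 lungs were untreated. No genotype, strain, sex, age or other allele or agent is given in the labels for any group. Whether each numbered lung is from a separate animal is not in the labels, so the p values measure only how far these lungs spread, which may be technical. Values are signal intensities after the authors scaled every chip to a common trimmed mean (150.03 to 150.04), and a lung's value is the mean of its 2 chips. Chip medians ran from 68.2 to 90.1. Of the air lungs, 5 carry lung numbers apart from the rest (8 h replicate 3, 48 h replicates 3 and 4, and 72 h replicates 2 and 3), and the counts of mitosis genes called in comparisons that rest on them are also given without them. In air replicate 1 of 1 h the thymocyte gene Rag1 measured 303, against 0.7 to 27.1 in the other 51 lungs. The lung markers Sftpc, of alveolar type 2 cells, and Scgb1a1, of club cells, were bright in all 52 lungs (4638 to 9230 and 4743 to 9369).

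Division starts when Cdk1, the mitotic kinase, is bound by A- and B-type cyclins. The genes for these proteins and for the machinery they set in motion share a program: their transcripts build up late in the cell cycle and are cleared as the cell exits mitosis, so that a resting cell holds little of them. In that program the factor NF-Y binds CCAAT boxes and the MuvB complex, with the factors B-Myb and Foxm1, binds a site called the cell cycle genes homology region (CHR). Most cells of an adult lung are not dividing, and division is known to increase during repair after injury. In whole lung RNA, fewer dividing cells and less RNA per dividing cell cannot be told apart.

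At 48 h, 25 of the 33 mitosis genes were higher in CG than in air lungs and 0 were lower. At 72 h, 17 were higher and 0 lower, and all 17 were among the 25. At 0.5, 1, 4, 8, 12 and 24 h none passed the test in either direction. The test was limma's moderated test on log2(intensity + 16), fitted over all 12393 genes with p adjusted by the Benjamini-Hochberg method over all of them, with a call made where that adjusted p fell under 0.05. Over all genes, the share called higher in CG lungs was 2.78% at 48 h and 2.15% at 72 h, and the share called lower 2.65% at 48 h and 1.89% at 72 h. The median log2 change of the 33 genes, CG minus air, was -0.09 at 0.5 h, -0.38 at 1 h, -0.11 at 4 h, -0.01 at 8 h, 0.18 at 12 h, 0.13 at 24 h, 0.92 at 48 h and 0.66 at 72 h. The median over all genes lay between -0.08 and 0.01 at these times.

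**Figure D1:**
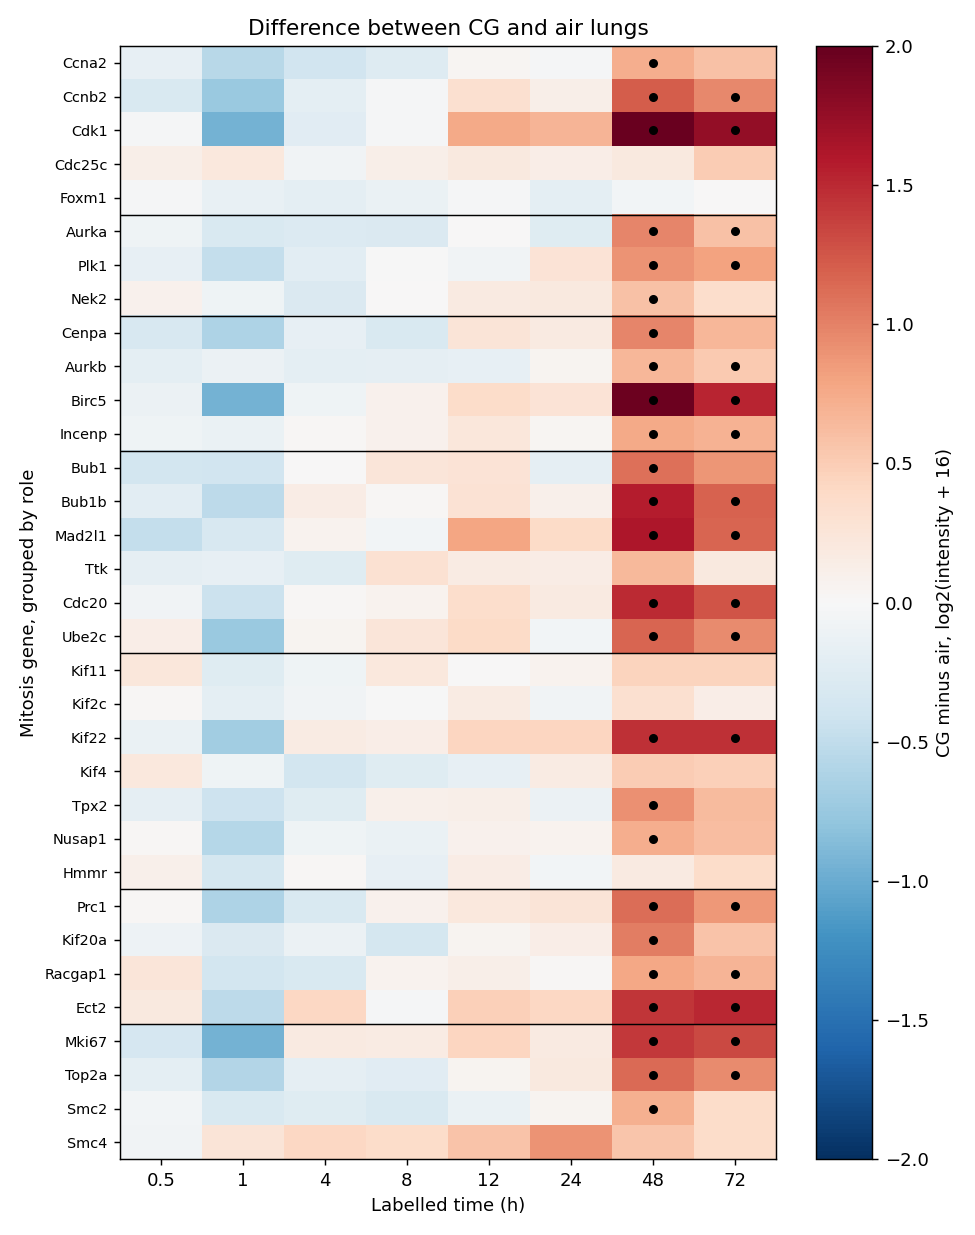
Log2 change of each of the 33 mitosis genes (rows, grouped by role in the order of the text) between CG and air lungs at each labelled time in hours (columns), on the log2(intensity + 16) scale. Black dots mark an adjusted p under 0.05, which 25 genes reached at 48 h, 17 at 72 h and 0 earlier.

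Among the genes of mitotic entry, 3 of the 5 measured rose at 48 h and 2 at 72 h, and Cdk1 had the largest log2 change of all 33 genes at both times on the log2(intensity + 16) scale. At 48 h that order depended on the added value: with 64 added Birc5 was ahead of Cdk1 (1.35 and 1.33), and with 4 added Bub1b and Cdk1 were level at 2.29. Cdk1 measured 251, 160 and 203 in the CG lungs of 48 h, against 50.6, 13.6, 66.4 and 49.4 in the air lungs. Each CG lung was above every air lung, and the log2 change was 1.97 ± 0.36 (SE, adjusted p = 0.000318 in limma). At 72 h Cdk1 measured 181, 180 and 243 in CG lungs, against 36.2, 40.2 and 90.7 in air lungs, again without overlap (1.75 ± 0.38 SE, adjusted p = 0.00437). Ccnb2, which encodes cyclin B2, averaged 128 ± 12.9 in CG lungs and 48.6 ± 17.8 in air lungs at 48 h (SD, n = 3 and 4), and its log2 changes were 1.21 at 48 h and 0.96 at 72 h. Ccna2, which encodes cyclin A2, rose at 48 h (0.73 ± 0.18 SE, adjusted p = 0.00872 in limma) and missed the threshold at 72 h (0.59, adjusted p = 0.0745). Cdc25c, a phosphatase that activates the mitotic kinase, was read at 11 ± 7.16 in CG lungs and 7 ± 4.95 in air lungs at 48 h, below the added 16, so that a change would be understated. Foxm1 had log2 changes of -0.06 at 48 h and 0.01 at 72 h, and none of its 4 probe sets was called at either time (-0.07 to 0.24).

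Promoters are shown for 3 of the genes that rose at both times and hold the motifs of the late cell cycle program (Cdk1, Cdc20 and Ccnb2) and for 1 that rose at both times and holds none of them (Mad2l1). They are RefSeq sequences on GRCm38.p6, from 250 bases before the annotated start to 50 bases after it, read along the gene. Cdk1 is at chr10:69352863-69353162, minus strand, Cdc20 at chr4:118437294-118437593, minus strand, Ccnb2 at chr9:70421505-70421804, minus strand and Mad2l1 at chr6:66534971-66535270, plus strand. Capitals mark CCAAT, the core of the NF-Y site, and TTTGAA or TTCGAA, the core of the CHR, on either strand (reversed, CCAAT reads ATTGG and TTTGAA reads TTCAAA, and TTCGAA reads the same).
Cdk1: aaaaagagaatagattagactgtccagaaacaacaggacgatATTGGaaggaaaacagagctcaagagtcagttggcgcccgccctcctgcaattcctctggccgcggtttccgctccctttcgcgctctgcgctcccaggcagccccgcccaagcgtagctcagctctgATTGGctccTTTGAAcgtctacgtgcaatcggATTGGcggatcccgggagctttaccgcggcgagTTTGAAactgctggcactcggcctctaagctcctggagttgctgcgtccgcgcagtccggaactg
Cdc20: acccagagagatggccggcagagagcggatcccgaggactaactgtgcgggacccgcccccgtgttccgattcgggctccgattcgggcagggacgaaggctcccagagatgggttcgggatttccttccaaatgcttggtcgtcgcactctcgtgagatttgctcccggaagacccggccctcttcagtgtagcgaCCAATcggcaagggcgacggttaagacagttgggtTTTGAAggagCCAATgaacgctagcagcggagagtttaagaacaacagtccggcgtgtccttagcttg
Ccnb2: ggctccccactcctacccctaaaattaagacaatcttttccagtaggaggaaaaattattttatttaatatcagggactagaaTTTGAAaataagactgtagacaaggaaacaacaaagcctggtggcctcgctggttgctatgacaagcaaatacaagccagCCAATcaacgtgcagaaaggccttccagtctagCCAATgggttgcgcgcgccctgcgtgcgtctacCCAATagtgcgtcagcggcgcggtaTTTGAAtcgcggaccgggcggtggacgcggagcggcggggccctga
Mad2l1: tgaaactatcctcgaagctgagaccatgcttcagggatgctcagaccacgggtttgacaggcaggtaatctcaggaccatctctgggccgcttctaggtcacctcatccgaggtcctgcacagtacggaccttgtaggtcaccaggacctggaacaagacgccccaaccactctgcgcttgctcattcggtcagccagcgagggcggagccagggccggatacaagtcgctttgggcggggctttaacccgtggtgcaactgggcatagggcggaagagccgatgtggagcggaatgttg

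In Cdk1 CCAAT words read on the other strand begin 208, 80 and 48 bases before the start, and TTTGAA words 71 and 15 bases before it. In Cdc20 a CCAAT begins 53 and a TTTGAA 18 bases before the start, with a further CCAAT at 8 bases before it. In Ccnb2 the 3 CCAAT words begin 87, 54 and 21 bases before the start. Its TTTGAA words begin 167 bases before the start and 5 bases after it. Of the 35 genes, 27 matched a RefSeq promoter, with 29 entries. CCAAT stood in 25 of the 29 entries (86.2%), against 37.4% of the 32851 promoters of all genes. TTTGAA stood in 23 (79.3%), against 17.9% of all promoters, and TTCGAA in 3 (10.3%), against 1.56%. The 2 kinds of motif stood together in 23 entries (79.3%), against 7.52% of all promoters. Birc5, Mad2l1 and Nusap1 held none, as did 50.9% of all promoters. These matches are a description, and no binding was measured.

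**Figure D2:**
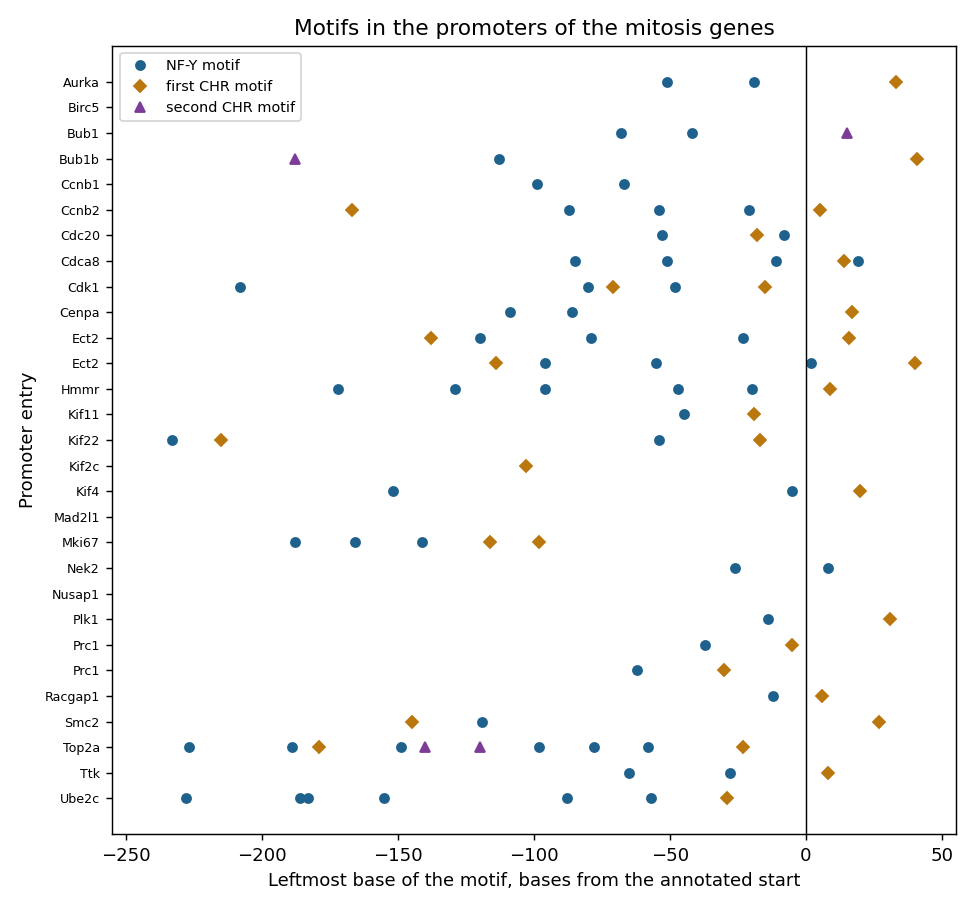
Position of each motif (horizontal axis, bases from the annotated start, leftmost base of the motif) in the 29 promoter entries of the mitosis genes (rows). The NF-Y motif (circles) stands in 25 entries, the first CHR motif (diamonds) in 23 and the second (triangles) in 3.

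All 3 other mitotic kinases rose at 48 h. Aurka, which matures the centrosomes, measured 107 ± 11.8 in CG lungs and 46.7 ± 6.96 in air lungs (SD, n = 3 and 4), a log2 change of 0.98 ± 0.16 (SE, adjusted p = 6.94e-05 in limma). Plk1, which acts from mitotic entry to cytokinesis, had a log2 change of 0.90 at 48 h and 0.80 at 72 h, and both passed. Nek2, a centrosome kinase, passed at 48 h alone (0.59 ± 0.18 SE, adjusted p = 0.0378 in limma), and its change at 72 h was 0.35 (adjusted p = 0.382).

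All 4 measured genes of the centromere and the passenger complex rose at 48 h and 3 of them at 72 h. Birc5, which encodes the passenger subunit survivin, measured 218, 178 and 244 in the CG lungs of 48 h, against 21, 27.6, 64.3 and 74.8 in the air lungs. Its log2 change was 1.96 ± 0.32 (SE, adjusted p = 7.48e-05 in limma). At 72 h its CG lungs measured 184, 180 and 220 and its air lungs 34.2, 79 and 67.3 (log2 change 1.52 ± 0.34 SE, adjusted p = 0.00611). Aurkb, the kinase of that complex, measured 94.8, 85.3 and 91 in CG lungs, against 49.5, 43, 60.7 and 52.5 in air lungs at 48 h (log2 change 0.67 ± 0.14 SE, adjusted p = 0.0015). At 72 h Aurkb measured 88.7, 96.2 and 100 in CG lungs and 55.3, 64.1 and 65.1 in air lungs (0.52 ± 0.15 SE, adjusted p = 0.0377), and neither time had an overlap. Incenp, the scaffold of the complex, changed by 0.76 at 48 h and 0.69 at 72 h. Cenpa, the histone variant that marks centromeres, passed at 48 h (0.97, adjusted p = 0.00121 in limma) and had 0.66 at 72 h (adjusted p = 0.0671).

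The spindle checkpoint and the ubiquitin ligase that ends it had the highest median of the 7 role groups at both times, 1.32 at 48 h and 1.05 at 72 h, with 5 of 6 genes higher at 48 h and 4 of 6 at 72 h. Mad2l1, which holds back the ligase until chromosomes attach, measured 182, 150 and 159 in the CG lungs of 48 h, against 47.9, 31.1, 47.6 and 48.4 in the air lungs (1.61 ± 0.24 SE, adjusted p = 1.79e-05 in limma). Bub1b, a checkpoint kinase relative, measured 84.4, 55.1 and 40.6 in CG lungs, against 8.5, 5.05, 9.2 and 11.7 in air lungs (1.57 ± 0.19 SE, adjusted p = 2.99e-07). The air values lay below the added 16, so the fold is understated. Cdc20, which activates the ligase, measured 316, 262 and 304 in CG lungs, against 82, 72.3, 127 and 102 in air lungs (1.49 ± 0.22 SE, adjusted p = 1.76e-05). At 72 h Cdc20 measured 271, 295 and 309 in CG lungs, against 88, 142 and 112 in air lungs (1.26 ± 0.24 SE, adjusted p = 0.000843). The CG and air lungs of Mad2l1, Bub1b and Cdc20 did not overlap at either time. Ube2c, the ubiquitin-conjugating enzyme of the ligase, changed by 1.16 at 48 h and 0.95 at 72 h, and both passed. Bub1, a checkpoint kinase, passed at 48 h (1.10, adjusted p = 0.0104 in limma) and had 0.89 at 72 h (adjusted p = 0.0826). Ttk, the kinase at the head of the checkpoint, had 0.65 at 48 h (adjusted p = 0.0526) and 0.19 at 72 h (adjusted p = 0.78), and its lungs overlapped.

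On the probe sets used, spindle motors and spindle proteins were the role group with the lowest share of its genes called, 3 of 7 at 48 h and 1 of 7 at 72 h. This group also had the lowest medians (0.50 and 0.47). Other probe sets of Hmmr, Kif2c and Kif11 were called, as given below, so the ranking by share holds only for the probe sets used. Kif22, a motor that pushes chromosome arms from the poles, measured 248, 182 and 224 in the CG lungs of 48 h, against 56.9, 51.8, 84.7 and 85.3 in the air lungs (1.46 ± 0.29 SE, adjusted p = 0.000746 in limma). At 72 h it measured 185, 205 and 254 in CG lungs, against 50.5, 76.2 and 77.9 in air lungs (1.46 ± 0.31 SE, adjusted p = 0.0027), and the groups were apart at both times. Tpx2, which nucleates spindle microtubules, and Nusap1, which bundles them, passed at 48 h (0.92 and 0.73) and had 0.63 and 0.61 at 72 h (adjusted p = 0.0652 and 0.0987 in limma). Kif4, a motor of chromosomes and the midzone, had 0.50 at 48 h and 0.47 at 72 h (adjusted p = 0.0769 and 0.156), although its 3 CG lungs lay above every air lung at both times. Kif11, the motor that pushes the poles apart, had 0.44 and 0.45 (adjusted p = 0.249 and 0.302).

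For Hmmr and Kif2c the probe set chosen by mean level and other probe sets of the same gene differed. Hmmr, a spindle protein, had a log2 change of 0.18 at 48 h on the probe set used, against 0.80 and 0.86 on 2 of its other 3 probe sets (adjusted p = 0.00224 and 0.00193 in limma over all probe sets). Kif2c, a microtubule-depolymerizing motor, had 0.32 on the probe set used and 1.01 and 0.50 on 2 of its other 3 (adjusted p = 0.00905 and 0.0303). At 72 h the same 2 probe sets of Hmmr were called (0.67 and 0.81, adjusted p = 0.0286 and 0.0101 in limma). So was 1 of the other probe sets of Kif2c (0.53, adjusted p = 0.0423). Kif11 was called at 72 h on 1 of its other 2 probe sets (0.57, adjusted p = 0.0369). In the other direction, the second probe sets of Bub1, Nusap1 and Top2a, at -0.13, 0.16 and 0.04, were not called at 48 h. Neither of the other 2 probe sets of Incenp was called at 48 h (0.52 and 0.33) or 72 h (0.25 and 0.23), and 1 of the other 2 of Cdc20 was called at neither time (0.05 and 0.10). Over all 60 probe sets of the 33 genes, 36 were higher at 48 h and 23 at 72 h, of the 27 probe sets not used 0 were lower at either time, and 27 genes had at least 1 probe set called higher at 48 h and 19 at 72 h.

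All 4 genes of the central spindle and cytokinesis rose at 48 h. Ect2, the exchange factor that starts the cleavage furrow, measured 129, 107 and 115 in the CG lungs, against 35.9, 16, 40.5 and 50.2 in the air lungs (1.43 ± 0.25 SE, adjusted p = 0.000204 in limma). At 72 h its CG lungs measured 121, 134 and 112 and its air lungs 20.4, 38.5 and 41.2 (1.51 ± 0.27 SE, adjusted p = 0.00046). Prc1, which bundles the midzone microtubules, changed by 1.11 and 0.87, and Racgap1, the partner of Ect2, by 0.77 and 0.68 at 48 and 72 h, all past the threshold. Kif20a, a midzone motor, passed at 48 h (1.02, adjusted p = 0.000441) and had 0.57 at 72 h (adjusted p = 0.113).

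Among the chromosome proteins, Mki67, the common marker of dividing cells that coats mitotic chromosomes, measured 212, 170 and 214 in the CG lungs of 48 h, against 43.5, 43.3, 84.8 and 102 in the air lungs (1.42 ± 0.29 SE, adjusted p = 0.00131 in limma). At 72 h it measured 163, 182 and 200 in CG lungs, against 35.3, 103 and 65.5 in air lungs (1.32 ± 0.31 SE, adjusted p = 0.00844). Top2a, which untangles sister chromatids, measured 272, 214 and 280 in CG lungs, against 91, 68, 161 and 124 in air lungs at 48 h (1.14 ± 0.24 SE, adjusted p = 0.0016). At 72 h Top2a measured 222, 237 and 270 in CG lungs and 88.1, 144 and 128 in air lungs (0.94 ± 0.26 SE, adjusted p = 0.0238). Neither gene had an overlap at 48 or 72 h. Smc2 and Smc4 are the paired core subunits of condensin. Smc2 passed at 48 h (0.71, adjusted p = 0.00191), with 0.37 at 72 h (adjusted p = 0.223), while Smc4 was not called at any time and had its highest change, 0.90 ± 0.31 (SE, adjusted p = 0.155), at 24 h. Smc4 passed at 24 h in 2 fits that took the 2 chips of a lung as separate values. These had a term for hybridization day (0.95, adjusted p = 0.0201 in limma) or chip letter (0.90, adjusted p = 0.0239). Over all genes 270 and 236 were higher at 24 h in these fits, beside 130 in the main fit. At 24 h the 3 CG lungs of Smc4 lay above the 3 air lungs.

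**Figure D3:**
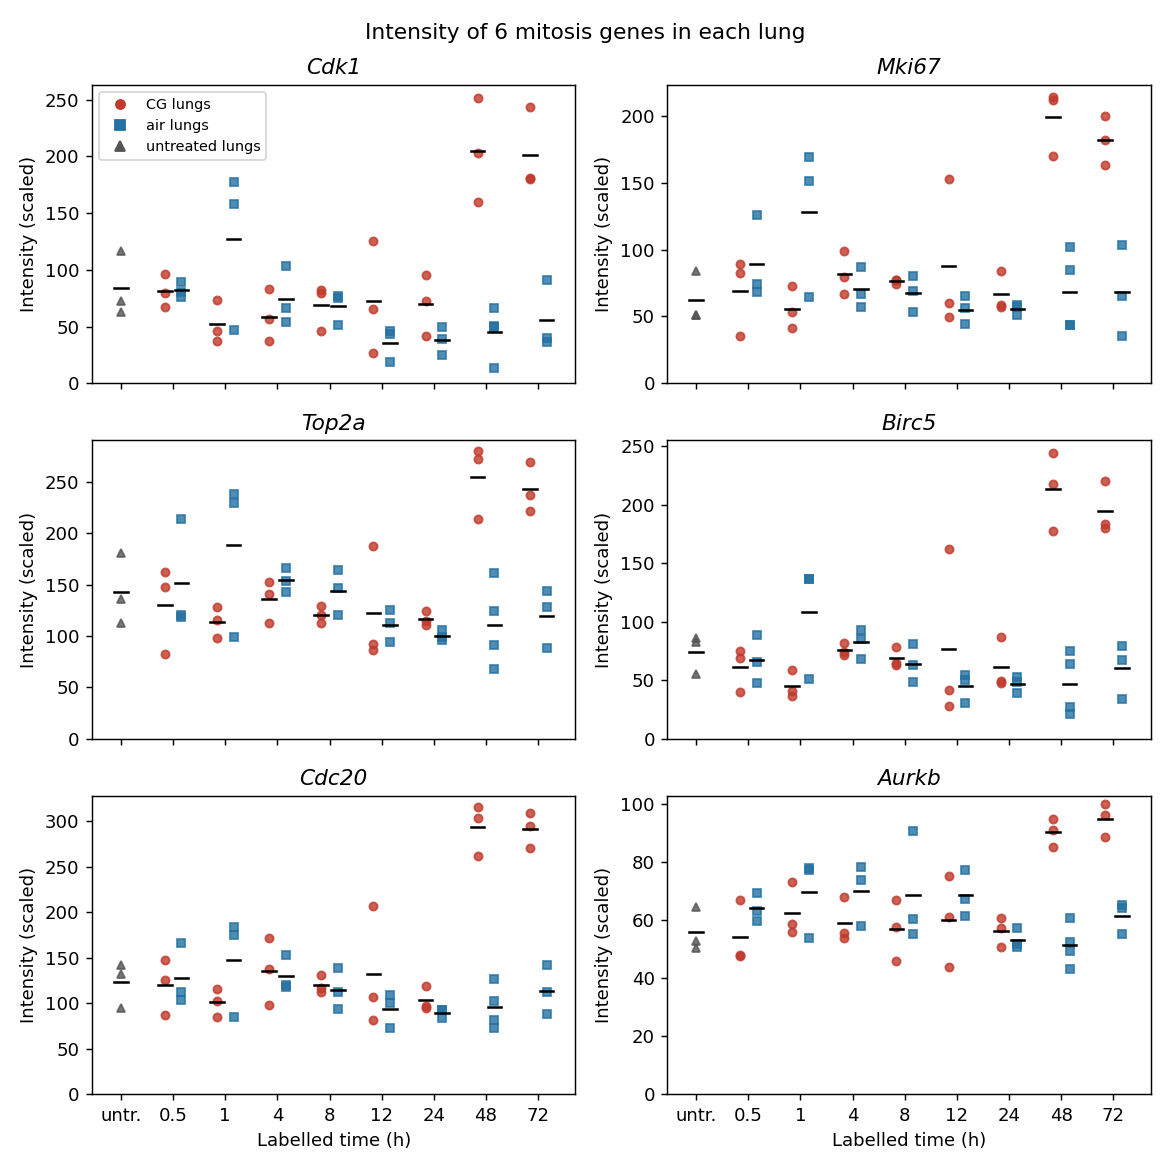
Intensity (scaled by the authors, vertical axes from 0) of 6 mitosis genes in each lung against the labelled time in hours, with CG lungs as red circles left of air lungs as blue squares, and untreated lungs as grey triangles at the far left. Black bars are group means, and the CG lungs of 48 and 72 h lie above all air lungs of their time in each panel.

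In 28 of the 33 genes at 48 h and 25 at 72 h, all CG lungs lay above all air lungs, against 7.09% and 10.2% of all genes. In each lung the median log2 level of the 33 genes was between 6.94 and 7.18 in the 6 CG lungs of 48 and 72 h, between 5.96 and 6.86 in the 18 CG lungs of earlier times, between 5.88 and 6.71 in the 25 air lungs and between 6.17 and 6.55 in the 3 untreated lungs. The 6 late CG lungs were above all 46 others.

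Where CG and air chips of 48 h shared a hybridization day, the median difference of the 33 genes within the day was 0.59 to 1.09 over 3 days, and at 72 h it was 0.91 and 1.01 on 2 days. The air lungs numbered apart had higher mitosis gene levels than the other air lungs of 48 h, by a median of 0.28 (27 of 33 genes), and of 72 h, by 0.23 (28 of 33 genes), but not at 8 h (-0.03, with 16 of 33 genes higher). Without the 5 lungs numbered apart, 0 genes were called at 8 h, 23 at 48 h and 6 at 72 h, where 1 air lung then remained and was assumed to vary like the other groups. With only the lungs numbered apart as air lungs, 15 were called at 48 h and 8 at 72 h. At 72 h single lungs also decided the count: it was 7 without air replicate 1, 9 without air replicate 3, 9 without CG replicate 2 and 11 without CG replicate 3. Whichever single lung was left out, 21 of the 25 calls of 48 h and 7 of the 17 calls of 72 h held. Of these, 17 calls of 48 h and 4 of 72 h (Bub1b, Cdc20, Ect2 and Kif22) also held in all planned settings of scaling, offset, filter, probe set, chip and block in which the gene was tested. At 72 h Cdk1 was not called on chip A alone (adjusted p = 0.0749 in limma), Incenp not on its next brightest probe set (0.811) or with only the lungs of that time (0.108), and Mad2l1 not on chip B alone (0.0618) or with hybridization day as a term (0.101).

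**Figure D4:**
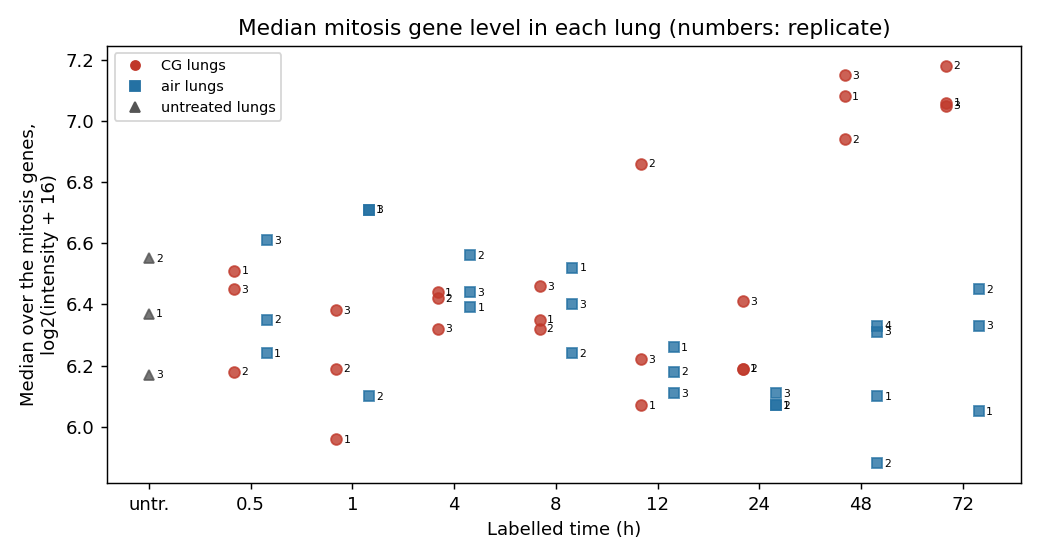
Median over the 33 mitosis genes of log2(intensity + 16) in each lung against the labelled time in hours, with CG lungs as red circles left of air lungs as blue squares and untreated lungs as grey triangles. Numbers are replicates, and the 6 CG lungs of 48 and 72 h lie between 6.94 and 7.18, above every other lung.

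Before 24 h no mitosis gene passed the test. At 0.5 h 0 genes were higher or lower, where 0.29% of all genes were called higher and 0% lower. At 1 h 31 of the 33 changes were negative and 0 genes passed, with 0.767% of all genes higher and 0.0726% lower. In limma, 15 of the 33 genes had an unadjusted p under 0.05 at 1 h and 0 had one at 0.5 h, against 8.12% and 3.57% of all genes. The lowest changes were those of Cdk1 (-0.95 ± 0.38 SE), Birc5 (-0.95 ± 0.34 SE) and Mki67 (-0.94 ± 0.31 SE), with adjusted p of 0.418, 0.306 and 0.219, and the lowest adjusted p was that of Ube2c (0.186). Fits that took the 2 chips of a lung as separate values, with 1 shared correlation between them, changed the call. With a term for the chip letter, Birc5, Mki67 and Ube2c were lower (adjusted p = 0.0304, 0.019 and 0.0156 in limma). With a term for hybridization day Mki67 and Ube2c were (0.0359 and 0.0236). In the letter fit the change of Birc5 stayed at -0.95, while its SE was 0.26, beside 0.34 in the main fit. Over all 12393 genes 48 were lower at 1 h with the chip letter and 66 with the day, beside 9 in the main fit. In 5 of the 33 genes (Bub1b, Ect2, Hmmr, Mad2l1 and Smc2) all CG lungs of 1 h lay below all air lungs, against 6.48% of all genes.

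The 3 air lungs of 1 h were spread widely. Mki67 measured 53, 41.7 and 72.8 in the CG lungs of 1 h, against 169, 64.5 and 151 in the air lungs and 50.8, 83.9 and 51.2 in untreated lungs. Cdk1 measured 46.1, 37.3 and 73.5 in CG lungs, against 177, 47 and 158 in air lungs and 72.7, 117 and 62.8 in untreated lungs. Air replicate 2 was thus within the range of the CG lungs in both genes, and air replicates 1 and 3 were above every CG and untreated lung. Replicate 2 was the lowest air lung in 30 of the 33 genes. Against untreated lungs the CG lungs of 1 h had a median log2 change of -0.11, and 0 genes passed. The air lungs of 1 h had a median of 0.24 against untreated lungs, with 31 of 33 changes positive, and 0 passed.

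Without air replicate 2, 8 genes were called lower at 1 h: Ccna2, Ccnb2, Cenpa, Kif22, Mki67, Nusap1, Prc1 and Ube2c, with log2 changes of -1.31 to -0.81. Over all 12393 genes 26 were lower in that fit, beside 9 with all lungs. Without air replicate 1, which carried the high Rag1 and in which the 11 thymocyte markers summed to 1695 against at most 483 in any other lung, 32 of 33 changes stayed negative with a median of -0.25 and 0 genes passed. Its 7 fat markers summed to 5079, the highest of all lungs, whereas replicate 3, with as high a mitosis level, had Rag1 at 6.9. On hybridization days shared by CG and air chips of 1 h the median difference was -0.70, -0.01, -0.84 and 0.23. The part of thymus and fat RNA in the 1 h difference was not tested.

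At 4 h and 8 h many genes were called, and 0 of them were mitosis genes. The share of all genes called higher and lower in CG lungs was 2.87% and 2.64% at 4 h and 3.92% and 4.83% at 8 h. With each chip centred on its median, 421 genes were higher and 106 lower at 4 h, beside 356 and 327 as deposited. At either time 0 of the 33 mitosis genes had an unadjusted p under 0.05 in limma, against 20.8% of all genes at 4 h and 21.9% at 8 h. Top2a averaged 136 ± 20.2 in CG lungs and 155 ± 11.4 in air lungs at 4 h, and 121 ± 8.1 in CG lungs and 144 ± 21.8 in air lungs at 8 h (SD, n = 3 each). Changes ran from -0.38 upward at 4 h and from -0.35 upward at 8 h, with 10 and 16 of 33 positive. The lean at 4 h depended on the scaling: 23 of 33 changes were negative (median -0.11) as deposited, 16 (median 0.00) with each chip centred on its median and 17 with quantile normalization. At 8 h 17 were negative as deposited and 11 in both other scalings.

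At 12 h and 24 h most changes were positive (27 and 25 of 33) and 0 passed. In limma 1 mitosis gene at each time was under an unadjusted p of 0.05, against 14.9% and 11.8% of all genes. Over all genes 1.32% were higher and 0.516% lower at 12 h, and 1.05% higher and 0.936% lower at 24 h. Mad2l1 had the highest change at 12 h (0.79 ± 0.26 SE, adjusted p = 0.0989), with 53.6, 121 and 39 in CG lungs and 29.9, 28 and 36.6 in air lungs. Its groups did not overlap, but CG replicate 2 stood well above the other 2 CG lungs. That lung was the highest CG lung of 12 h in 28 of 33 genes: Mki67 measured 49.8, 153 and 59.7 in the CG lungs, against 64.9, 56.3 and 44.1 in the air lungs, and Birc5 27.9, 162 and 41.6 in the CG lungs, against 54.8, 50.6 and 30.7 in the air lungs. CG replicates 1 and 3 lay within or just below the air range in both genes. Without CG replicate 2 the median change of 12 h was -0.02, against 0.18 with it, and 19 of 33 changes were negative. At 24 h Mki67 measured 58.2, 57 and 84.3 in CG lungs, against 51.2, 58.4 and 57.1 in air lungs.

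The change of the CG effect over time was tested directly. In an F test over the 8 times, 23 of the 33 genes changed their CG effect with time, against 3.99% of all genes. Those that did not pass were Bub1, Cdc25c, Foxm1, Hmmr, Kif11, Kif2c, Kif4, Nek2, Smc4 and Ttk. The mean CG effect of 48 and 72 h exceeded that of 4, 8 and 12 h in 25 of 33 genes, against 4.35% of all genes, with a median difference of 0.83. This split into late and early times was chosen with earlier results of these data known, so it is no independent test of the pattern. Cdk1 (1.69 ± 0.34 SE, adjusted p = 0.00106 in limma) and Birc5 (1.62 ± 0.31 SE, adjusted p = 0.000445) differed most. Without the 5 air lungs numbered apart the F test called 22 genes and the late against early comparison 23, and with only them as air lungs of their times 11 and 21. Between 24 h and 48 h, a step chosen after the values were seen, the effect of Aurka grew by 1.22 ± 0.23 (SE, adjusted p = 0.0162) and that of Bub1b by 1.48 ± 0.27 (adjusted p = 0.0162). These were 2 of the 3 genes called higher in that step among all genes, or 0.0242%. Without the 5 air lungs numbered apart 0 mitosis genes passed in this step. With all lungs it did not pass for the other 31 mitosis genes, although 32 of 33 differences were positive with a median of 0.78. Between 48 h and 72 h the median difference of the effects was -0.20, with 28 of 33 negative, and 0 mitosis genes and 0% of all genes passed. At an unadjusted p under 0.05 in limma there were 0 of 33, against 2.36% of all genes.

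Against untreated lungs, 18 mitosis genes were higher in CG lungs at 48 h and 15 at 72 h, against 2.55% and 1.59% of all genes, and 0 were lower. Of the 25 genes called against air at 48 h, 17 were also called against untreated lungs, and of the 17 called at 72 h, 10 were. The CG and untreated comparisons of different times share the 3 untreated lungs, and the comparisons against air and untreated share the CG lungs. Mki67 was higher by 1.49 ± 0.31 at 48 h and 1.37 ± 0.31 at 72 h (SE, adjusted p = 0.00182 and 0.00604 in limma), with untreated lungs at 62 ± 19 (SD, n = 3). Cdk1 was not called against untreated lungs, which averaged 84.3 ± 29.1 (SD, n = 3), whereas the air lungs of 48 h averaged 45 ± 22.3 (SD, n = 4). Without untreated replicate 3 the count was 9 at 48 h and 6 at 72 h, and without CG replicate 2 of 72 h it was 6 at 72 h.

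At the 6 earlier times 0 mitosis genes were called in either direction between CG and untreated lungs, while the share of all genes called was 1.46% at 0.5 h, 3.77% at 1 h, 5.83% at 4 h, 10.8% at 8 h, 3.33% at 12 h and 3.76% at 24 h. In limma 2 mitosis genes at 0.5 h, 3 at 1 h and 0 at the other 4 times had an unadjusted p under 0.05. The share of all genes under that p was 13.3% at 0.5 h, 16.3% at 1 h and 14.6% to 23.2% at the other 4 times.

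Between air and untreated lungs 0 mitosis genes were called at any of the 8 times, also without the 5 air lungs numbered apart. The share of all genes called between air and untreated lungs was 0.347% at 0.5 h, 0.178% at 1 h, 0% at 4 h, 0.00807% at 8 h, 1.52% at 12 h, 0.161% at 24 h, 0.226% at 48 h and 0.153% at 72 h. At an unadjusted p under 0.05 limma gave 0, 6, 3, 0, 5, 5, 3 and 0 mitosis genes at these times. The share of all genes under that p was 10.9%, 7.36%, 13.3%, 9.88%, 21%, 9.38%, 7.48% and 5.91%, in the same order. Among these mitosis genes Cdk1 had the largest changes. It averaged 35.9 ± 15.3 in air lungs of 12 h and 38 ± 12.1 in air lungs of 24 h, against 84.3 ± 29.1 in untreated lungs (SD, n = 3 each). Its log2 changes were -1.07 and -0.97 (adjusted p = 0.111 and 0.453 in limma). An F test over the 8 air groups called 0 mitosis genes and 0.96% of all genes. In it 8 mitosis genes and 11.7% of all genes were under an unadjusted p of 0.05.

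Other genes of cell division also rose at 48 and 72 h. The few called earlier in the further mitosis and replication lists were near the share of all genes. Of 54 further mitosis genes on the chip, 27 were higher at 48 h and 15 at 72 h, 1 at each of 4, 8 and 12 h, and 0 were lower at any time. Over all genes 2.87% were higher at 4 h, 3.92% at 8 h and 1.32% at 12 h. The further mitosis genes called early were Zwint, a kinetochore protein, at 4 h (1.07) and 8 h (1.08) and Tacc3, a spindle protein, at 12 h (0.86). Nuf2, a kinetochore subunit, averaged 78.8 ± 12.8 in CG lungs and 16.8 ± 10.6 in air lungs at 48 h (SD, n = 3 and 4), a log2 change of 1.59. Of 39 genes of DNA replication and S phase, 16 were higher at 48 h and 12 at 72 h, and 0 were lower at those times. Earlier 0 were higher, with 1 lower at 4 h and 2 at 8 h, where 2.64% and 4.83% of all genes were lower. Rrm2, a subunit of the enzyme that makes deoxynucleotides, averaged 333 ± 88.6 in CG lungs and 79.5 ± 26.2 in air lungs at 48 h (1.88 ± 0.21 SE, adjusted p = 5.85e-08 in limma). The list medians at 48 h were 0.54 for the further mitosis genes and 0.48 for replication, beside -0.02 for all genes.

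Of 12 subunits and regulators of the anaphase-promoting complex and of 11 genes of the DREAM, MuvB and pocket protein group, 0 were called at 48 or 72 h. Among 9 genes of cohesin and its regulators, Cdca5, which encodes the cohesin protector sororin, rose at both times (1.12 and 0.97). Of 12 genes for cyclins of the first gap phase, their kinases and E2F factors, Myc (0.72) and Ccne2 (0.60) were higher and Ccnd2 (-0.51) lower at 48 h. Myc, a growth factor response gene, was also higher at 1, 4, 8, 12 and 24 h, by 1.26, 2.03, 2.18, 1.17 and 1.13. Of 17 CDK inhibitors and growth arrest genes 1, 3, 4, 6, 2, 2, 1 and 2 were higher at the 8 times in order. The share of all genes was 0.29%, 0.767%, 2.87%, 3.92%, 1.32%, 1.05%, 2.78% and 2.15%. At 1, 4 and 8 h 1 was lower, where 0.0726%, 2.64% and 4.83% of all genes were. Cdkn1a was higher at 4, 8 and 12 h (1.78, 1.81 and 1.07). At 48 h the checkpoint kinase Chek1 alone rose (1.01 ± 0.19 SE, adjusted p = 0.000709 in limma), and at 72 h Chek1 and Wee1 did (0.73 each).

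Marker genes of several cell types changed at the same late times, and some also changed earlier. At 4, 8, 12 and 24 h, 4, 5, 2 and 1 of 10 endothelial markers were lower, against 2.64%, 4.83%, 0.516% and 0.936% of all genes. Of 13 neutrophil markers 3, 5, 2 and 1 were higher at these 4 times, against 2.87%, 3.92%, 1.32% and 1.05% of all genes. For the late counts that follow, the share of all genes called higher was 2.78% at 48 h and 2.15% at 72 h. The share called lower was 2.65% and 1.89%. Of 11 monocyte and macrophage markers, 3 were higher at 48 h and 4 at 72 h, and their summed intensity was 8636 to 8929 in CG lungs and 6971 to 8566 in air lungs at 48 h, and 8859 to 10490 in CG lungs and 6387 to 9265 in air lungs at 72 h. Of 10 endothelial markers, 5 were lower at 48 h and 4 at 72 h (sums of 5939 to 6542 in CG lungs and 8579 to 9995 in air lungs at 48 h, and of 5593 to 6630 in CG lungs and 8544 to 10092 in air lungs at 72 h). Of 8 cardiac muscle markers 4 were lower at each time (sums of 2802 to 3096 in CG lungs and 3518 to 4670 in air lungs at 48 h, and of 2005 to 3345 in CG lungs and 3948 to 4272 in air lungs at 72 h). Of 5 erythroid markers 2 were lower at 48 h and 1 at 72 h (sums of 338 to 439 in CG lungs and 683 to 967 in air lungs at 48 h, and of 226 to 277 in CG lungs and 736 to 816 in air lungs at 72 h). Neutrophil markers were higher for 1 of 13 at 48 h and 2 of 13 at 72 h (sums of 2981 to 3602 in CG lungs and 1160 to 1620 in air lungs at 48 h, and of 2176 to 3738 in CG lungs and 990 to 1711 in air lungs at 72 h). The called genes were Lcn2 at both times and Ltf at 72 h. Lcn2 alone averaged 1589 ± 271 in CG lungs and 338 ± 45.5 in air lungs at 48 h (SD). S100a8 and S100a9 were called higher at 4 and 8 h but not at 48 or 72 h. Of 11 thymocyte markers 0 were called at either time, with sums of 312 to 399 in CG lungs and 358 to 480 in air lungs at 48 h, and of 311 to 372 in CG lungs and 335 to 448 in air lungs at 72 h. The part of these cell types in the mitosis result was not tested, and whole lung RNA does not show which cells held the mitosis transcripts.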

How the data were processed

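The deposited value of each probe set is a signal intensity on a linear scale, scaled by the authors to a common 2% trimmed mean, as the values show. Which algorithm made it is not given in the sources used here. Chip settings deposited with each sample (unit other) gave 11 hybridization days, known for 97 of 104 chips. Of 22690 probe sets, 20380 carried 1 gene symbol, and the probe set of highest mean stood for each of 12393 genes. Here 16 was added before log2, the 2 chips of a lung were averaged, and limma fitted 1 mean for each of 17 groups with a trend (35 residual and 5.4 prior degrees of freedom), with p adjusted by the Benjamini-Hochberg method. Arrays give no counts, so their number limits the precision. The median SD over the mitosis genes was 0.25 between the chips of a lung and 0.27 between lungs of a group.

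Members and lists were chosen with earlier results of these data known. Values by lung were given for at most 6 called genes per time, ordered by change among those without overlap, and for Mki67, Top2a, Cdk1 and Aurkb, and at most 3 called genes of each other list. Outside this rule, the values of Mad2l1 and Birc5 at 12 h were also given, where neither gene was called. Motifs were searched as exact words. Alternatives changed the offset (4, 64), normalization, filter, probe set, chip, block, day or lungs. The fits with a letter or day term took the 2 chips of a lung as separate values, with correlations of 0.283 and 0.301 between them. The chips of a lung carry letters that the titles give otherwise for 56 of 104 chips. Chips of the same letter did not deviate together (median correlation 0.00 over 1326 pairs of lungs), so the letter is no pairing. The code was tested on simulated data. Tools were limma 3.58.1 in R 4.3.3, and pandas 2.3.3 and matplotlib 3.10.9 in Python 3.11.15.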

Additional observations from a re-analysis of the deposited data

Results flagged for a closer look

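In 25 of the 33 mitosis genes the mean CG effect of 48 and 72 h differed from that of 4, 8 and 12 h by the test of the difference itself (limma, adjusted p under 0.05). The split of times was chosen with earlier results of these data known. The differences, late minus early on the log2 scale, were all positive. Among the genes of mitotic entry they were 1.69 for Cdk1, 1.05 for Ccnb2 and 0.86 for Ccna2. For the kinases Aurka and Plk1 they were 0.97 and 0.94. In the centromere and passenger complex they were 1.62 for Birc5, 0.88 for Cenpa, 0.77 for Aurkb and 0.61 for Incenp. In the checkpoint and ubiquitin ligase group they were 1.23 for Cdc20, 1.22 for Bub1b, 1.11 for Mad2l1, 0.83 for Ube2c and 0.82 for Bub1. Spindle genes had 1.22 (Kif22), 0.78 (Tpx2), 0.74 (Kif4) and 0.72 (Nusap1). Cytokinesis genes had 1.19 (Ect2), 0.99 (Prc1), 0.92 (Kif20a) and 0.76 (Racgap1). Chromosome proteins had 1.15 (Top2a), 1.11 (Mki67) and 0.77 (Smc2). Kif4 passed here although it passed at neither 48 h nor 72 h, and Nek2 passed at 48 h but not here.

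The 4 air lungs of 48 h are the only group large enough for a test of outlying lungs. Mad2l1 in air replicate 2, at 31.1, lay apart from the other 3 air lungs at 47.6 to 48.4, by Dixon's test. It was 1 of 33 genes tested, and chance flags about 1 in 20 groups.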

How the results depend on the processing

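The 6 reported counts of called mitosis genes above 0 had 193 values under other settings, of which 176 stayed within 1.5 times the reported count, and the 29 reported counts of 0 stayed 0 in 502 of 515. Gene by gene, 455 of 493 values of the 48 h calls and 231 of 321 of the 72 h calls passed the threshold under other settings. Leaving out 1 lung each, the count of genes higher in CG than in air lungs was 21 to 26 at 48 h and 7 to 17 at 72 h, of genes higher than in untreated lungs 9 to 19 at 48 h and 6 to 13 at 72 h, of genes lower at 1 h 0 to 8, of genes higher at 12 h 0 to 1 (1 without CG replicate 3) and of genes changing with time in air 0 to 2 (2 without air replicate 2 of 1 h). With the chip letter as a replicate block and the lung as a random block, 25 genes were higher than in air at 48 h, and the counts that moved were 3 lower at 1 h, 1 higher at 24 h, 23 higher than untreated at 72 h and 5 changing with time in air. With hybridization day as a term, 2 were lower at 1 h, 1 (Smc4) was higher at 24 h, and 1 was called between CG and untreated lungs at 4 h, 1 at 24 h and 1 between air and untreated lungs at 1 h. On chip A alone 11 were higher than in air at 72 h, 11 and 6 higher than untreated at 48 and 72 h, and 14 changed their CG effect with time. On chip B alone 1 gene, Mad2l1, was higher at 12 h and 1 was called between air and untreated lungs at 12 h. With only the lungs of that time in the fit, 9 were higher at 72 h. Chosen after the values were seen, the settings on the 5 air lungs numbered apart gave 15 at 48 h and 8 at 72 h with them alone, 6 at 72 h without them, and 11 changing their CG effect with time with them alone. On the next brightest probe set the change of Bub1 at 48 h was -0.13 and that of Top2a at 72 h was -0.03, the only 2 of the called genes' changes to turn. The causes were not tested. The filter at a mean intensity of 50 left 23 of the 33 genes and called 18 at 48 h.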
